A study of Homo sapiens with 4 samples.

Results

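The 4 ID genes (ID1, ID2, ID3 and ID4), the ligand genes BMP4, TGFB1 and TGFB2 and the inhibitory SMAD genes SMAD6 and SMAD7 were read from RNA sequencing of NUGC3, an established human stomach cancer cell line. These 9 genes were chosen by symbol and all 9 were found among the 53777 Ensembl genes of the table. The labels give 2 wild-type libraries (genotype wild_type) and 2 libraries of cells with a knockdown of MYC (genotype MYC_KD), a transcription factor that drives growth, and the question was how the RNA profile differs between them. The sources used here do not say how MYC was knocked down, for how long, in how many clones, or whether the wild-type cells received a control construct. They also do not say whether replicates were separate cultures, and the p-values then reflect only the spread among these libraries, which may be technical.

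ID proteins are helix-loop-helix proteins without a DNA-binding region. They pair with E proteins such as TCF3 and TCF12 and keep them off DNA, and ID genes are classic direct targets of bone morphogenetic protein (BMP) signalling through SMAD1, SMAD5 and SMAD9. TGF-beta and activin ligands signal through SMAD2 and SMAD3 instead. SMAD6 and SMAD7 are induced by these pathways and block the receptors or the other SMADs, which closes a negative feedback loop. In epithelia, ID proteins are known for holding cells in an undifferentiated state, and TGF-beta for slowing growth and promoting migration.

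The values were read as FPKM (fragments per kilobase of transcript, scaled to library depth), a level per length that can be compared between genes. The table does not name its unit, and TPM, also a level per length, with some rows left out would look alike. Read as FPKM, steps in the low values put the depth at about 28.2, 21.4, 20.4 and 21.4 (each times 1e+06) fragments in wild-type replicates 1 and 2 and knockdown replicates 1 and 2, if the step found is 1 fragment. MYC itself had 82.88 and 82.01 FPKM in the wild-type libraries against 64.98 and 75.81 FPKM in the knockdown libraries, lower in both but with a limma adjusted p of 0.237, so the labelled knockdown is a small difference in RNA. The knockdown libraries lay further apart (median absolute log2 difference 0.201) than the wild-type libraries (0.076). Knockdown replicate 1 stood apart in 10 interferon-stimulated genes, whose FPKM summed to 1076 there against 86.4 and 78.3 in wild type and 90.4 in knockdown replicate 2. The epithelial markers EPCAM, CDH1, KRT8, KRT18 and KRT19 lay between 54.25 and 2488 FPKM, while the stomach markers CLDN18, TFF1, MUC5AC and MUC6 were at most 0.53 FPKM in any library. Of markers of other cell types, 1 of 6 for fibroblasts (COL1A1), 1 of 4 for immune cells (CD68) and 0 of 3 for endothelium passed the filter on low values, and the fibroblast genes COL1A2, COL3A1 and DCN and the leukocyte gene PTPRC were listed at 0 in all 4 libraries.

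ID1, ID2 and ID3 were higher in both knockdown libraries than in both wild-type libraries, as was the low ID4, but with very different sizes and very different spread. ID1 was 1.41-fold higher from a high level, and ID2 and ID3 were 4.16-fold and 4.82-fold higher from low levels, with most of the difference in knockdown replicate 1. TGFB2 and SMAD7 were also higher, and TGFB1 was lower. BMP4 and SMAD6 overlapped between the groups. The test took genes that reached 1 FPKM in 2 or more libraries (12953 genes, 8 of these 9) and was run with limma on log2(FPKM + 1), with Benjamini-Hochberg adjustment over all of them. At an adjusted p under 0.05, 0 of the 8 passed, against 0% of all genes (0 of 12953, smallest limma adjusted p 0.0556), and 6 of the 8 had an unadjusted limma p under 0.05, against 25.9% of all genes. At an adjusted p under 0.10, 1 of the 8 passed, against 10.4% of all genes. That gene was TGFB1, which was lower, as were 4.91% of all genes at this threshold, and 0 of the 8 were called higher, against 5.5% of all genes. All 8 tested genes had at least 1 FPKM in both groups, so none entered the test through 1 group alone. With 1 library left out, the fit took its spread from the pair that remained in the other group. The count of calls then moved for all genes as it did for these 8. In these bulk libraries, fewer cells with a transcript and less of it per cell cannot be told apart.

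**Figure D1:**
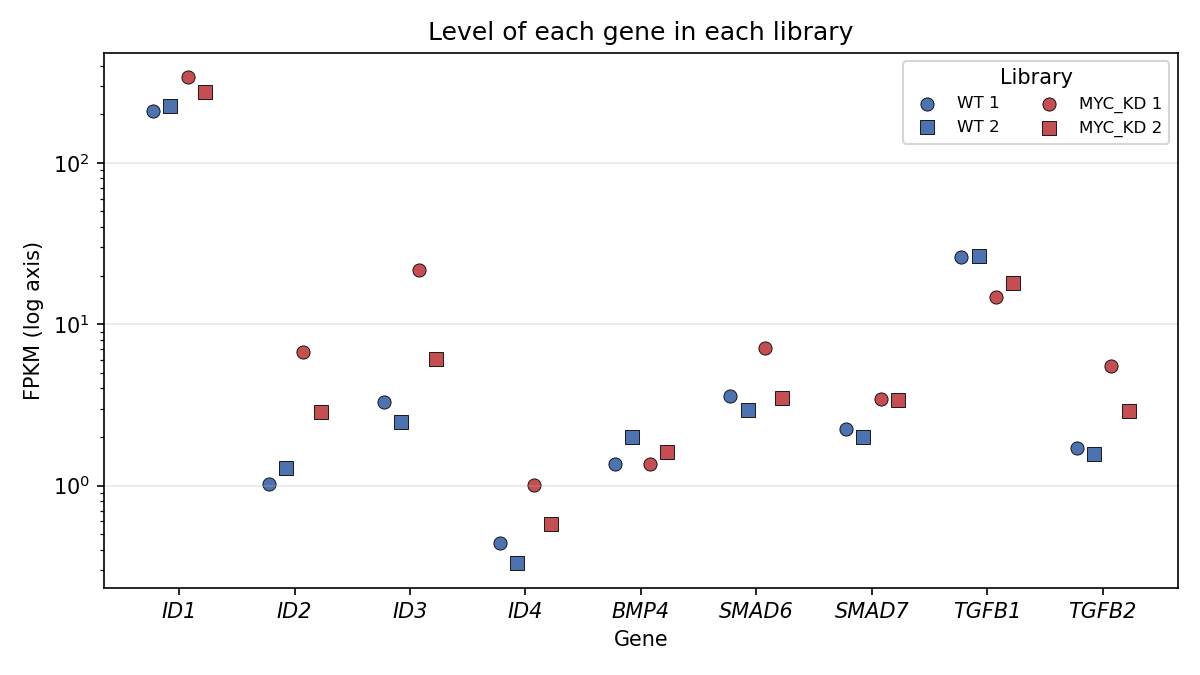
FPKM (log axis) of each of the 9 genes in the 4 libraries, wild type (WT) in blue and MYC knockdown (MYC_KD) in red, with circles for replicate 1 and squares for replicate 2. ID1, ID2, ID3, ID4, SMAD6, SMAD7 and TGFB2 were highest in knockdown replicate 1, SMAD7 by little. TGFB1 lay lower in both knockdown libraries (14.78 and 17.95 FPKM) than in both wild-type libraries.

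The core promoters of the ID genes are shown because the 4 genes lay in the same direction. All 9 genes matched the RefSeq promoter table (GRCh38.p14), with 13 windows of 250 bases before to 50 after a start site. The stretches below run from 45 to 16 bases before the start site, 5′ to 3′ on the gene's strand, with capitals marking TATAA on either strand (TTATAA holds it on both).
ID1: ggccgtggcgtgtTTATAAaagacaagctg
ID2: ccccggcgagtgcggataaaagccgccccg
ID3: ccttccaggcaggctcTATAAgtgaccgcc
ID4: ccggggcgcacggctcTATAAatacagctg
They lie at chr20:31605244-31605273 (plus strand), chr2:8682011-8682040 (plus), chr1:23559517-23559546 (minus) and chr6:19837325-19837354 (plus). TATAA was found in this stretch for ID1, ID3 and ID4 and not for ID2, and 6.34% of the 27305 genes in the table hold it at this place in some window. This motif was chosen after the promoters had been seen. The same stretch of TGFB2 holds it too, in tggttcagagagaacTTATAAatctcccct, as does 1 of the 3 windows each of BMP4 and SMAD7.

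ID1, the most abundant of the family, is located on chromosome 20 from 31605283 to 31606515, plus strand (ENSG00000125968; GENCODE release 29 on GRCh38, which may not be the authors' annotation). It had 210.5 and 224.68 FPKM in the wild-type libraries against 338.6 and 274.74 FPKM in knockdown replicates 1 and 2. The groups did not overlap, and knockdown replicate 1 was the highest library. The means were 218 ± 10.03 and 307 ± 45.2 FPKM (SD, n = 2 per group). The log2 change was 0.49 (95% limma interval 0.16 to 0.81; limma adjusted p = 0.106), which did not pass either threshold. It passed 0.10 with protein-coding genes alone (limma adjusted p = 0.0916), with a mean of at least 5 FPKM (0.0936), with median-of-ratios scaling (0.0901) and with equal column sums (0.0594), within a range of 0.0145 to 0.606 over all alternatives.

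ID2 (ENSG00000115738; chromosome 2, 8678845 to 8684453, plus strand), known for binding the retinoblastoma protein as well as E proteins, was low in wild type. It had 1.02 and 1.28 FPKM there and 6.70 and 2.87 FPKM in knockdown replicates 1 and 2. The groups did not overlap, and knockdown replicate 1 was 2.33-fold above knockdown replicate 2. On the log2 scale the change was 1.35 with a 95% limma interval of 0.39 to 2.30 (limma adjusted p = 0.115). Against the wild-type mean, knockdown replicate 1 was at 5.83-fold and knockdown replicate 2 at 2.50-fold. The log2 change was 0.85 without knockdown replicate 1, and 1.85 with a pseudocount of 0.1 in place of 1.

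ID3 (ENSG00000117318; chromosome 1, 23557918 to 23559794, minus strand) had the largest log2 change of the 8 genes tested and also the widest spread. It had 3.28 and 2.49 FPKM in the wild-type libraries against 21.7 and 6.08 FPKM in knockdown replicates 1 and 2. Both knockdown values were above wild type, but the knockdown libraries differed 3.57-fold from each other. Only 0.818% of all genes tested had a gap between the knockdown libraries as large as that of ID3 on the log2 scale. On the log2 scale the change was 1.71 with a 95% limma interval of 0.20 to 3.23 (limma adjusted p = 0.159), and it was 0.87 without knockdown replicate 1. Knockdown replicate 1 is the library with the high interferon-stimulated genes, and the part of that difference in the ID2 and ID3 values was not tested. Against the wild-type mean, ID3 was at 7.52-fold in knockdown replicate 1 and at 2.11-fold in knockdown replicate 2.

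ID4 (ENSG00000172201; chromosome 6, 19837386 to 19840684, plus strand) was near the limit of these libraries. It had 0.44 and 0.33 FPKM in the wild-type libraries against 1.01 and 0.58 FPKM in knockdown replicates 1 and 2, and it did not pass the filter on low values. For its single transcript of 2344 bases these values, if FPKM, correspond to roughly 26, 15, 43 and 26 fragments, so each value carries a wide counting error.

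ID1 made up nearly the whole family in every library. It held 97.8% and 98.2% of the summed ID FPKM in wild type and 92.0% and 96.6% in knockdown replicates 1 and 2. The family sum was 215 and 229 FPKM in wild type and 368 and 284 FPKM in the knockdown libraries. ID2 and ID3 had the larger folds, but ID1 remained the bulk of the ID RNA per length in all 4 libraries.

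**Figure D2:**
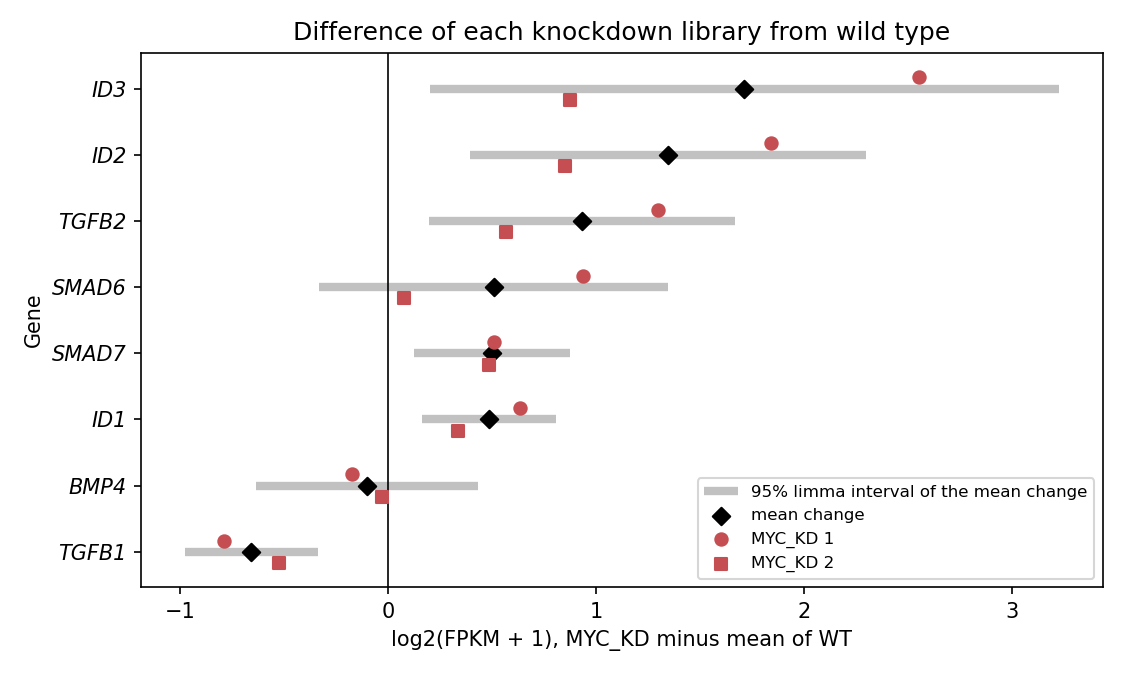
Difference of each knockdown library from the wild-type mean on the log2(FPKM + 1) scale for the 8 genes tested, with the mean change (diamond) and its 95% limma interval (grey bar). The replicates of SMAD7 nearly coincide at 0.51 and 0.49, while those of ID3 lie at 2.55 and 0.87.

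Among the ligands, TGFB1 was lower and TGFB2 higher in the knockdown, and BMP4 overlapped. TGFB1 (ENSG00000105329; chromosome 19, 41301587 to 41353911, minus strand) encodes the most widely expressed TGF-beta ligand. It had 25.99 and 26.52 FPKM in the wild-type libraries against 14.78 and 17.95 FPKM in knockdown replicates 1 and 2. Both knockdown values were below both wild-type values, which differed little from each other. The log2 change was −0.66 (95% limma interval −0.97 to −0.34; limma adjusted p = 0.0712), or a 1.60-fold lower mean, 16.4 ± 2.24 against 26.3 ± 0.375 FPKM (SD, n = 2 per group). This call at 0.10 was lost with no filter on low values (limma adjusted p = 0.168) and without wild-type replicate 1 or 2 (0.538 and 0.564).

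TGFB2 (ENSG00000092969; chromosome 1, 218346235 to 218444619, plus strand), a ligand that needs the co-receptor TGFBR3 to bind well, was low in wild type. It had 1.71 and 1.57 FPKM there and 5.48 and 2.91 FPKM in knockdown replicates 1 and 2. The groups did not overlap, and knockdown replicate 1 was the highest library again. On the log2 scale the change was 0.93 with a 95% limma interval of 0.20 to 1.67 (limma adjusted p = 0.135), and 0.57 without knockdown replicate 1. The ratio of TGFB1 to TGFB2 was 15.2 and 16.9 in wild type and 2.70 and 6.17 in the knockdown libraries, lower in both knockdown libraries, with TGFB1 still the more abundant of the pair.

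BMP4 (ENSG00000125378; chromosome 14, 53949736 to 53958761, minus strand), a BMP ligand that acts upstream of the ID genes, had 1.37 and 2.01 FPKM in the wild-type libraries against 1.37 and 1.62 FPKM in the knockdown libraries. Neither knockdown value lay outside the wild-type range. The log2 change was −0.10 with a 95% limma interval of −0.63 to 0.43 (limma adjusted p = 0.791), an interval that leaves room for a change of moderate size in either direction. It was 0.07 without wild-type replicate 2.

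The feedback inhibitors differed in how well the knockdown libraries matched. SMAD7 (ENSG00000101665; chromosome 18, 48919853 to 48952052, minus strand), which blocks both TGF-beta and BMP receptors, had 2.24 and 2.01 FPKM in the wild-type libraries against 3.45 and 3.38 FPKM in knockdown replicates 1 and 2. The knockdown libraries were nearly equal, and both were above wild type. On the log2 scale the change was 0.50 with a 95% limma interval of 0.12 to 0.88 (limma adjusted p = 0.124). SMAD7 is the gene among these 8 whose knockdown values agree best, and 93.8% of all genes tested had a wider gap between the knockdown libraries or an equal one.

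SMAD6 (ENSG00000137834; chromosome 15, 66702228 to 66782848, plus strand), which acts mainly on the BMP branch, had 3.59 and 2.94 FPKM in the wild-type libraries against 7.16 and 3.48 FPKM in knockdown replicates 1 and 2. Knockdown replicate 1 was 2.06-fold above knockdown replicate 2, which lay between the wild-type values. The log2 change was 0.51 with a 95% limma interval of −0.33 to 1.35 (limma adjusted p = 0.374), and 0.075 without knockdown replicate 1. The difference in SMAD6 rested on the library with the high interferon-stimulated genes, whose part in it was not tested.

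Motifs known from this biology were searched on both strands of the 13 windows, namely CACGTG, the E-box bound by MYC with its partner MAX, GGCGCC, a part of BMP response elements, and GTCTAGAC, the palindrome that SMAD3 and SMAD4 bind. All 3 read the same on both strands, and they do not overlap in these windows. The matches below are shown because 3 of the 9 genes carry one, with the motif in capitals and 30 bases in each. The share of all genes with any of the 3 motifs was not computed, so this count is no trait of these genes.
SMAD6: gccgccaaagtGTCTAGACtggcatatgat
TGFB2: gttgaaggcagaCACGTGgttcagagagaa
BMP4, distal start: ccggggaacccgGGCGCCcgccccttctac
BMP4, proximal start: ggcctcggcgctCACGTGactccgaggggc
They lie at chr15:66702213-66702242 (plus strand), chr1:218345275-218345304 (plus), chr14:53955265-53955294 (minus) and chr14:53953461-53953490 (minus). The SMAD palindrome begins 12 bases before the RefSeq start of SMAD6, at the edge of its annotated first exon, and 0.256% of genes in the table have it in a window. The E-box is held by 8.77% of genes and GGCGCC by 22% of genes, and BMP4 has a further GGCGCC just after its distal start. The TGFB2 stretch overlaps an annotated exon of another gene, TGFB2-AS1. Its E-box begins 49 bases before the RefSeq start of TGFB2. That start itself lies before the GENCODE start of TGFB2 given above (218346235). The windows of ID1, ID2, ID3, ID4, SMAD7 and TGFB1 hold none of these letters, which says nothing of sites outside 300 bases.

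Ordered by wild-type level, the 9 genes ran from ID1 (218 FPKM) and TGFB1 (26.3) to SMAD6 (3.27), ID3 (2.89), SMAD7 (2.13), BMP4 (1.69), TGFB2 (1.64), ID2 (1.15) and ID4 (0.385). The replicates of SMAD6 and ID3 overlapped, as did those of BMP4 and TGFB2, and SMAD7 and BMP4 met at 2.01 FPKM, so these neighbours did not differ beyond their spread. In the knockdown the order was ID1 (307 FPKM), TGFB1 (16.4), ID3 (13.9), SMAD6 (5.32), ID2 (4.79), TGFB2 (4.20), SMAD7 (3.42), BMP4 (1.495) and ID4 (0.795). There the replicates of every neighbouring pair from TGFB1 to SMAD7 overlapped.

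Of the 8 genes tested, 5 were higher and 1 was lower where the groups did not overlap. Over all genes tested these shares were 33.4% for higher and 25.2% for lower, or 58.6% for both directions together. The median log2 change of the 8 genes was 0.50 against 0.038 over all genes tested. Knockdown replicate 1 was above knockdown replicate 2 in 6 of the 8 genes (5 with equal column sums), and in 60.5% of all genes (51.1% with equal column sums). With 2 libraries against 2, an exact permutation test of a single gene cannot go below p = 0.333, so the limma fit, which borrows the spread of other genes, is the test reported.

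The wider BMP and TGF-beta pathway was read in 94 further genes grouped by role, of which 58 passed the filter. At an adjusted p under 0.05 limma called 0 of them, and at 0.10 it called 5, PMEPA1, SNAI2, FSTL3 and TWSG1 higher and TGIF2 lower, against 10.4% of all genes. The groups did not overlap in 21 higher and 12 lower genes, or 56.9% of the 58, against 33.4%, 25.2% and 58.6% of all genes, so this share is near the background. GDF11 and RUNX2, among the 12 lower, passed the filter through the wild-type libraries alone and had to be lower. The median log2 change was 0.10. Their knockdown pair leaned the other way from that of the ID genes. Knockdown replicate 1 was above knockdown replicate 2 in 18 of 58, or 31%, against 60.5% of all genes. With equal column sums these shares were 29.3% and 51.1%. The lists had been chosen with earlier results of these data known.

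**Figure D3:**
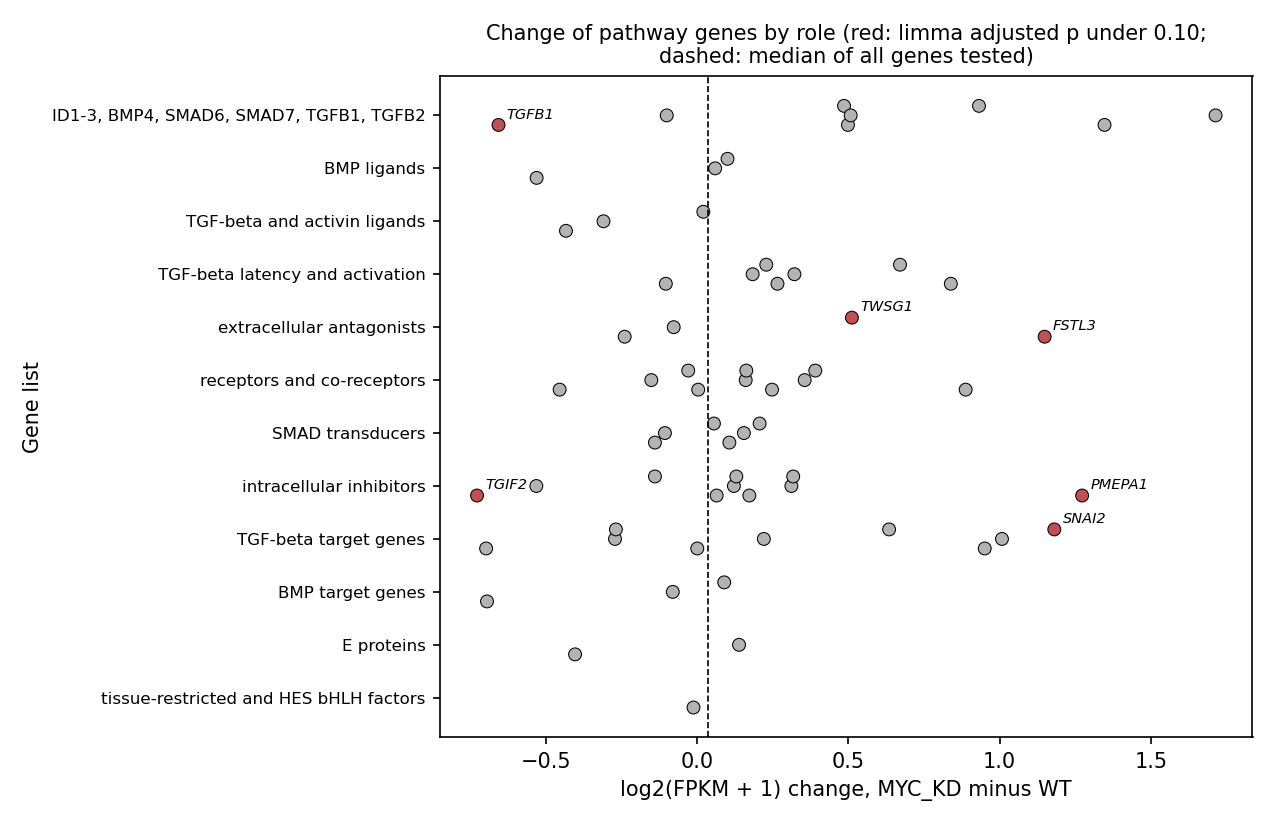
Log2(FPKM + 1) change of each gene tested, grouped by role, with red points for a limma adjusted p under 0.10 and a dashed line at the median of all genes tested (0.038). The labelled genes are TGFB1, TWSG1, FSTL3, TGIF2, PMEPA1 and SNAI2.

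Other ligand genes were mostly low or overlapping. Of 10 further BMP ligand genes 3 were tested, and BMP6 was lower at 1.22 and 1.21 FPKM in the knockdown against 2.33 and 2.07 FPKM in wild type (log2 change −0.53, limma adjusted p = 0.140). BMP2 had 2.52 and 1.97 FPKM in the wild-type libraries against 1.89 and 2.93 FPKM in the knockdown, and overlapped. BMP8B, another BMP ligand gene, was at 1.44 and 1.46 FPKM in wild type and 1.51 and 1.75 FPKM in the knockdown, a small difference without overlap (log2 change 0.10, limma adjusted p = 0.744). The most abundant ligand gene of the superfamily in the lists was INHBA, which encodes the activin A subunit, with 414.87 and 403.55 FPKM in the wild-type libraries against 268.83 and 405.23 FPKM in knockdown replicates 1 and 2. Only knockdown replicate 1 was lower (log2 change −0.31, limma adjusted p = 0.401), and the change was −0.014 without it. INHBB, another activin subunit gene, overlapped at 2.27 and 2.21 FPKM in wild type and 2.0 and 2.60 FPKM in the knockdown. GDF11, an activin-like ligand, was at 1.08 and 1.01 FPKM in wild type and 0.48 and 0.55 FPKM in the knockdown, and it passed the filter through wild type alone, so its test is not given.

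Among 4 extracellular antagonists tested, 2 were called higher at 0.10, against 5.5% of all genes. So short a list says little beside this share. FSTL3, a follistatin-like protein that traps activins, had 3.91 and 5.11 FPKM in the wild-type libraries against 13.07 and 9.48 FPKM in the knockdown (log2 change 1.15, limma adjusted p = 0.0687). TWSG1, which binds BMPs in the extracellular space, had 41.61 and 39.55 FPKM in the wild-type libraries against 57.20 and 59.34 FPKM in the knockdown (log2 change 0.51, limma adjusted p = 0.0598). The groups did not overlap for either gene. Both calls were lost with no filter on low values (limma adjusted p = 0.1745 for FSTL3 and 0.1446 for TWSG1). The BMP antagonist NOG had 5.06 and 4.60 FPKM in the wild-type libraries but 2.53 and 5.90 FPKM in the knockdown, so its change reversed with the library left out, from −0.72 to 0.24.

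Of 13 receptor genes 10 were tested and 0 were called at 0.10, against 10.4% of all genes. TGFBR2, the TGF-beta type II receptor, had 12.82 and 12.92 FPKM in the wild-type libraries against 19.47 and 31.20 FPKM in the knockdown, without overlap (log2 change 0.89, limma adjusted p = 0.111). Its log2 change was 1.215 without knockdown replicate 1 and 0.56 without knockdown replicate 2. ACVR2B, an activin type II receptor, was at 3.15 and 3.15 against 2.23 and 1.84 FPKM (limma adjusted p = 0.162). TGFBR3, the co-receptor for TGFB2, was high in knockdown replicate 1 alone, at 11.55 FPKM against 6.17 to 6.62 FPKM in the other libraries. The 7 latency and activation genes tested had a median log2 change of 0.27 and 0 calls at 0.10, against 10.4% of all genes. FURIN, a protease that cleaves the TGF-beta precursor, was at 33.59 and 32.86 against 40.31 and 43.31 FPKM (limma adjusted p = 0.110). ITGB8, an integrin subunit that activates latent TGF-beta, was high in knockdown replicate 2 alone, at 13.73 FPKM against 3.19 to 3.76 FPKM in the other libraries. LTBP2, of the latent TGF-beta binding protein family, was at 3.62 and 3.53 against 4.77 and 8.19 FPKM (limma adjusted p = 0.190), with a log2 change of 0.67, or 0.335 without knockdown replicate 2.

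All 6 receptor-driven and common SMAD genes were tested, and their log2 changes stayed between −0.14 and 0.21. The highest of these changes was that of SMAD1, a BMP-branch transducer, which had 11.51 and 10.58 FPKM in wild type and 13.57 and 12.25 FPKM in the knockdown (log2 change 0.21, limma adjusted p = 0.303). Limma called 0 of the 6 at 0.10, against 10.4% of all genes. An unadjusted limma p under 0.05 was reached by 0 of the 6, against 25.9% of all genes, and so short a list says little beside these shares.

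Of the 10 intracellular inhibitors tested, 1 was called higher and 1 lower at 0.10, against 5.5% and 4.91% of all genes. PMEPA1, a TGF-beta-induced protein that sequesters SMAD2 and SMAD3, had 119.38 and 112.43 FPKM in the wild-type libraries against 233.21 and 339.48 FPKM in the knockdown (log2 change 1.27, limma adjusted p = 0.0594). Here knockdown replicate 2 was the higher library, opposite to ID3. TGIF2, a SMAD co-repressor, was lower at 11.60 and 9.51 against 18.52 and 17.59 FPKM (log2 change −0.73, limma adjusted p = 0.0668). SMURF2, a ubiquitin ligase recruited by SMAD7, was at 86.62 and 111.2 against 144.13 and 140.47 FPKM without overlap (limma adjusted p = 0.108), with a log2 change of −0.53, or −0.35 without knockdown replicate 1. Over the 10 genes of this list, 6 had both knockdown values above wild type and 3 had both below, against 33.4% and 25.2% of all genes.

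Target genes of the TGF-beta and BMP branches lay in both directions, with groups that did not overlap in 3 higher and 3 lower of the 9 TGF-beta targets tested and in 0 higher and 2 lower of the 3 BMP targets tested. Over all genes tested these shares were 33.4% and 25.2%. SNAI2, a transcription factor of epithelial-mesenchymal transition, had 6.70 and 7.56 FPKM in the wild-type libraries against 14.66 and 20.63 FPKM in the knockdown (log2 change 1.18, limma adjusted p = 0.0616). THBS1, which encodes thrombospondin 1, was at 86.63 and 82.56 against 124.5 and 234.9 FPKM (limma adjusted p = 0.139), with a log2 change of 1.01, or 0.55 without knockdown replicate 2. TGFBI, a secreted matrix protein, was high in knockdown replicate 2 alone, at 13.52 FPKM against 2.26 to 3.29 FPKM in the other libraries. Of the 6 BMP targets besides ID genes and inhibitory SMADs, 3 were tested. RUNX2, a bone transcription factor, was at 1.55 and 1.91 FPKM in wild type and 0.75 and 0.62 FPKM in the knockdown, and it passed the filter through wild type alone, so its test is not given and it is no support for a direction of the list. MSX1 and MSX2, homeobox genes known as BMP targets, had log2 changes of −0.08 and 0.09.

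The partners of the ID proteins were present. TCF3, which encodes E12 and E47, had 21.83 and 20.71 FPKM in the wild-type libraries against 15.02 and 16.70 FPKM in the knockdown, lower without overlap (log2 change −0.40, limma adjusted p = 0.105). TCF12 was at 19.62 and 21.03 against 20.09 and 25.10 FPKM and overlapped, and TCF4 was listed at 0 in all 4 libraries. Of 8 other helix-loop-helix factors only HES1, the Notch effector, passed the filter, with 28.44 and 28.31 FPKM in the wild-type libraries against 31.96 and 24.75 FPKM in the knockdown.

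Likeness of pattern was measured over the 4 libraries as the Euclidean distance between log2(FPKM + 1) values centred on each gene's mean, among 9235 protein-coding genes with a mean of at least 5 FPKM. With 4 libraries many genes lie close by, and the distances are a description. The nearest to ID1 were AGO4 (distance 0.023), VPS39 (0.027) and ZNF114 (0.034). The nearest to ID3 were ALPP (0.353), SAMD9 (0.394) and DDX60L (0.477). They were picked for their likeness to ID3, so their peak in knockdown replicate 1 follows from that choice and is no separate result. ALPP, the nearest, had 41.73 and 43.95 FPKM in the wild-type libraries against 226.62 and 88.76 FPKM in knockdown replicates 1 and 2. SAMD9 is known as an interferon-responsive gene, and it had 2.98 and 3.25 FPKM in the wild-type libraries against 24.73 and 5.19 FPKM in knockdown replicates 1 and 2. A link of ID3 to interferon was not tested.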

How the data were processed

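RNA was measured in 2 wild-type and 2 MYC knockdown libraries, grouped by sample title. The tools STAR and RSEM are named, per the submitters' processing notes, and the sources used here give no version, genome build, annotation or strandedness. The values deposited by the authors have 2 decimals and were read as FPKM, since the columns sum to 674328 to 739335 and not to 1 fixed total. Only Ensembl rows were used (53777 of 344810). Without recoverable counts, no count test or counting interval is given.

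Log2(FPKM + 1) was fitted with limma 3.58.1 in R 4.3.3 (eBayes with a mean trend) on genes that reached 1 FPKM in 2 or more libraries. The fit was checked on simulated data with equal spread in both groups, so that check does not cover the wider knockdown pair. FPKM + 1 understates changes of low genes. The 9 genes, the pathway lists and the threshold of 0.10 were chosen with earlier results of these data known. Named were the 9 genes, MYC, and the 3 genes per list with the largest absolute log2 change, with further receptors, SMADs and E proteins allowed. The labels give no batch. Fold changes are ratios of mean FPKM. Protein sequences were not used here, and 1 endothelial marker was not analysed here.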

Additional observations from a re-analysis of the deposited data

How the results depend on the processing

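The counts of calls depended on the processing more than the direction of the single genes did. At a limma adjusted p under 0.05, all genes gave 0 calls, but 310 with a mean of at least 5 FPKM, 313 with median-of-ratios scaling, 385 with protein-coding genes alone, and 0 to 3413 with 1 library left out. Of the genes of interest 0 passed 0.05, and 0 to 6 did with 1 library left out. Of the pathway genes 0 passed 0.05, 1 with a mean of at least 5 FPKM, 3 with protein-coding genes alone, and 0 to 24 with 1 library left out. At 0.10, all genes gave 1349 calls (713 higher, 636 lower), but 0 with no filter on low values, 2151 with equal column sums (1557 higher, 594 lower), 838 without a mean trend, and 0 to 5359 with 1 library left out. Of the genes of interest 1 passed 0.10, 0 with no filter, 2 with a mean of at least 5 FPKM, with median-of-ratios scaling or without a mean trend, 4 with protein-coding genes alone, 5 with equal column sums, and 0 to 7 with 1 library left out. Of the pathway genes 5 passed 0.10, 0 with no filter, 9 with a mean of at least 5 FPKM or equal column sums, 10 with protein-coding genes alone, and 0 to 32 with 1 library left out. With a single library left in a group, the fit takes its spread from the other group. Where no such construction shows it, the cause was not tested.

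The replicate numbers are shared between the groups, and the labels do not say whether they pair the libraries. Same-numbered libraries did not deviate together (correlation −0.006 across genes). A correlation of the single wild-type difference with the single knockdown difference cannot show whether they were paired. With a replicate block, 723 of all genes and 2 of the genes of interest passed 0.10.

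Single log2 changes that changed sign were all small or split between the knockdown libraries. BMP2 was at −0.014 and INHBB at −0.054 with quantile normalization, INHBB at −0.008 with median-of-ratios scaling, and HES1 at 0.074 with equal column sums. With 1 library left out, BMP4 ran from −0.273 to 0.072, BMP2 from −0.162 to 0.282, MSX2 from −0.063 to 0.243, TCF12 from −0.015 to 0.292, INHBB from −0.111 to 0.152, ITGB8 from −0.045 to 1.72, TGFBI from −0.055 to 1.96, NOG from −0.723 to 0.244 and HES1 from −0.190 to 0.166. ID1, ID2, ID3, SMAD6, SMAD7, TGFB1 and TGFB2 kept their direction under every alternative run, which was largely fixed in advance. For all of these but SMAD6 the groups did not overlap, so leaving out 1 library could not change the sign. Runs that changed only the filter, the block or the trend returned the same estimate. SMAD6 was at 0.075 without knockdown replicate 1, so its direction rested on that library. Depth limits the genes near 1 FPKM, ID2 and ID4 among them, where 1 FPKM over 1 kilobase is about 20.4 to 28.2 fragments if the unit is FPKM.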
